A study of Homo sapiens with 4 samples.

Results

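The subject here is the microRNA genes of Huh7 cells, as read by 1 probe each on a whole-transcript expression array. The members were all genes whose symbol in the array annotation begins with MIR and a digit, or with MIRLET7, and does not end in HG, and that had a probe with exactly 1 symbol. This gave 173 microRNA genes of 18377 genes measured, each with a single such probe. Another 34 microRNA genes were reached only by probes that carry several symbols and were left out.

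Huh7 is an established human hepatocellular carcinoma line. Fractions were taken from it by flow sorting on CD133, the surface glycoprotein encoded by PROM1 (CD133+ and CD133- cells), and on aldehyde dehydrogenase (ALDH+ and ALDH- cells). Both properties are used to enrich for cells with stem-like behaviour, which is the question named in the series' title. Neither a treatment nor a genotype other than that of the line is named in the labels, and whether the 4 fractions came from separate cultures is not stated. There were 4 arrays, 1 for each fraction, so no difference below has a replicate check or a p-value, and no test was made. Differences are given in log2 units as positive minus negative fraction, and their precision is limited by the number of arrays.

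A microRNA gene is transcribed as a long primary transcript, often as part of an intron or exon of another gene, called its host. The nuclear enzyme DROSHA, with DGCR8, cuts out a hairpin, the cytoplasmic enzyme DICER1 trims it to a short duplex, and 1 strand is loaded onto an Argonaute protein. The loaded strand pairs with messenger RNAs mainly through its seed, bases 2 to 8, and lowers their translation and stability. In liver, miR-122 is known as the dominant microRNA of hepatocytes, miR-192 and miR-194 as microRNAs of liver and intestine, and the let-7 family as a brake on growth genes that is blocked by LIN28. These probes may read the primary transcript or the hairpin precursor, and the mature microRNA was not measured separately.

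The members that the results turn on are shown by their mature sequences, taken from RefSeq on GRCh38.p14, which gave the mature arms used here for 164 of the 173 members. Capitals mark the seed. MIR503 had the largest difference of any member. Its hairpin lies at chrX:134546328-134546398 on the minus strand, inside the long non-coding RNA gene MIR503HG on the same strand. Its seed, AGCAGCG, is close to the seed AGCAGCA that 5 other members share (MIR15A, MIR15B, MIR16-1, MIR16-2 and MIR195), 3 of which are set beside it.
hsa-miR-503-5p of MIR503: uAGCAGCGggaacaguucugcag
hsa-miR-15a-5p of MIR15A: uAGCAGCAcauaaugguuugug
hsa-miR-16-5p of MIR16-1: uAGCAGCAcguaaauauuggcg
hsa-miR-195-5p of MIR195: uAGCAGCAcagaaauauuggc

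MIRLET7F1 was the member with the largest difference in the other direction. Its hairpin lies at chr9:94176347-94176433 on the plus strand, between those of MIRLET7A1 and MIRLET7D. The seed GAGGUAG is shared by 10 members, the largest seed group among them, of which 4 are shown.
hsa-let-7f-5p of MIRLET7F1: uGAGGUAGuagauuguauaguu
hsa-let-7a-5p of MIRLET7A1: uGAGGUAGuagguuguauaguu
hsa-let-7d-5p of MIRLET7D: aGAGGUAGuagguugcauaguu
hsa-let-7i-5p of MIRLET7I: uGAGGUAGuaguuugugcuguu

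The remaining sequences belong to members at least 1.5-fold different in the ALDH sort, and to MIR326, the member with the brightest probe, which shares the seed CUCUGGG with an arm of MIR330.
hsa-miR-219a-5p of MIR219A1: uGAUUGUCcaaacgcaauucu
hsa-miR-330-5p of MIR330: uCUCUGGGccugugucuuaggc
hsa-miR-326 of MIR326: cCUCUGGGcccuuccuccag
hsa-miR-27a-3p of MIR27A: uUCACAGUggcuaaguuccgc
hsa-miR-149-5p of MIR149: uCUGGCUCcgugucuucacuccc

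Most microRNA genes gave a dim probe signal. An expression floor was set at 4.98, the median of all values on the arrays. Of the 173 members, 25 were at or above it on all 4 arrays, 38 on at least 1 array and 135 on none, whereas 12177 of all 18377 genes reached it in at least 1 sort. The median log2 level of the members was 3.02 in CD133+, 2.97 in CD133-, 3.19 in ALDH+ and 3.07 in ALDH- cells, against 5.53, 5.53, 5.55 and 5.54 for all genes. Values below the floor are uncertain. The signal of one probe is not comparable with that of another as an amount of RNA, so the order of the members by signal is an order of probes.

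PROM1, the gene of the sorted protein, was at 9.0 in CD133+ and 5.32 in CD133- cells, and at 7.11 in ALDH+ and 8.39 in ALDH- cells. In contrast, ALDH1A1 was at 11.1 in both ALDH fractions (difference 0.04) and does not check the labels of that sort. All 14 measured hepatocyte markers were above the floor, with AFP at a mean of 11.7 and ALB at 11.3. Of the 14, 11 were lower in CD133+ cells, with a median of -0.29, AHSG (-1.58) and APOH (-1.05) among them, while TTR was higher (0.995). By ALDH 7 were higher and 7 lower, with a median of -0.01. Among genes other than microRNA genes with a mean of 5 or more, 42.5% were higher in CD133+ and 47.4% in ALDH+ cells. The part of the hepatocyte markers' differences in those of the members was not tested. Of the markers of other cell types, 4 of 12 for leukocytes, 5 of 11 for fibroblasts and stellate cells, 4 of 10 for endothelium and 0 of 4 for red cells reached the floor on at least 1 array. The 4 leukocyte markers that did were LYZ (differences -0.69 by CD133 and 1.33 by ALDH), CD68 (0.07 and -0.77), CD14 (-0.29 and 0.42) and NKG7 (-0.13 and 0.40), whereas PTPRC, the antigen shared by leukocytes, lay between 2.45 and 2.64. Of the leukocyte markers 10 of 12 were higher in ALDH+ cells, with a median of 0.34, where 53.8% of all genes were. Among genes other than microRNA genes the share was 66.4% at a mean of 3 to 4 and 64.5% at 4 to 5. The summed log2 level of the leukocyte markers was 54.2 in CD133+, 53.4 in CD133-, 56.1 in ALDH+ and 52.7 in ALDH- cells. Such sums hold many values below the floor and are not amounts of RNA. For fibroblast and stellate markers the sums ran from 50.9 to 52.5, for endothelial markers from 39.9 to 42.5 and for red cell markers from 15.4 to 16.4. In RNA of a whole fraction, fewer cells of a type and less RNA per cell cannot be told apart.

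**Figure D1:**
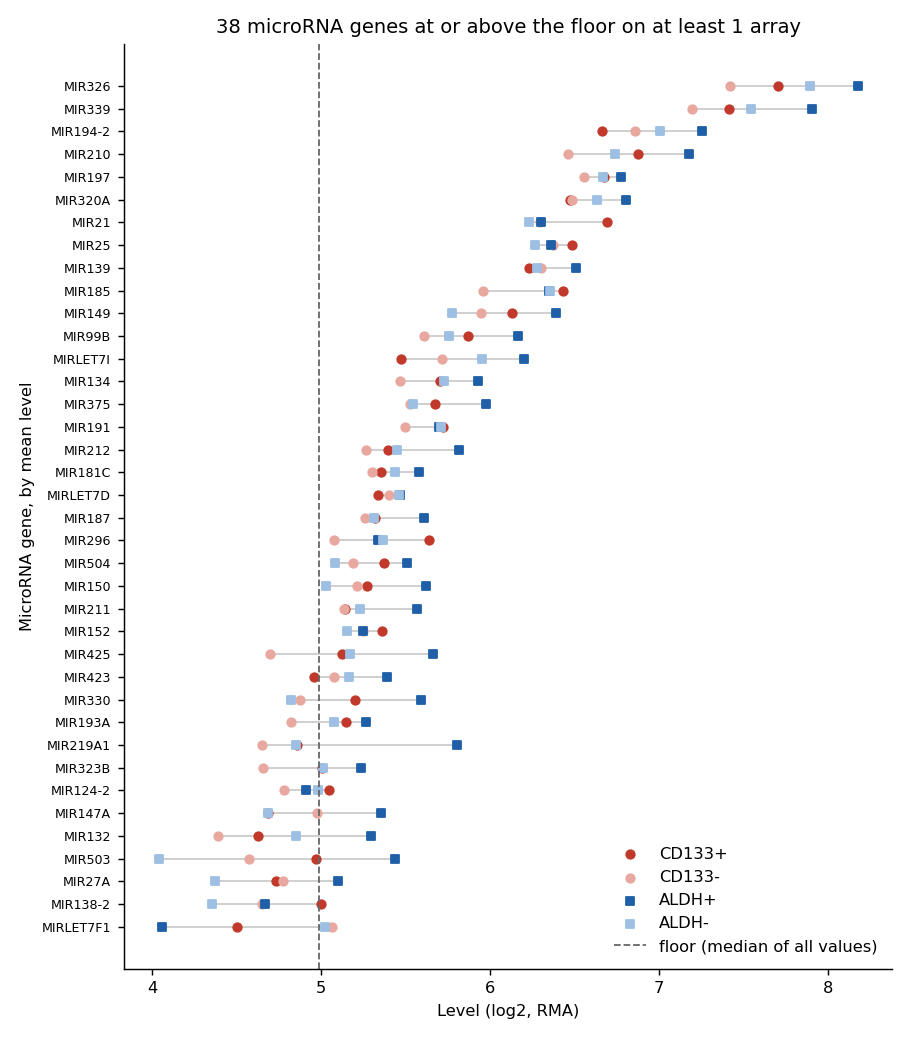
Log2 level (horizontal axis) of each of the 38 microRNA genes at or above the floor on at least 1 array, 1 row per gene; circles are the CD133 sort, squares the ALDH sort, dark symbols the positive and light symbols the negative fraction, and the dashed line is the floor of 4.98. The ALDH+ array is the highest for 19 of the 25 genes at or above the floor on all 4 arrays; genes such as MIR503 are in the plot only through their ALDH+ value.

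The members with the brightest probes differed little between fractions. MIR326, inside ARRB1, stood at 7.71 in CD133+, 7.42 in CD133-, 8.18 in ALDH+ and 7.89 in ALDH- cells. It was higher by 0.28 in both positive fractions. MIR339 stood at 7.42, 7.20, 7.90 and 7.55 in the same order, with differences of 0.22 and 0.36. Its pattern over the 4 arrays was the same as that of MIR326, with ALDH+ highest and CD133- lowest.

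MIR210, known as the microRNA induced by hypoxia, was at 6.87, 6.46, 7.18 and 6.74, higher by 0.41 in CD133+ and by 0.44 in ALDH+ cells. Both positive fractions were thus above both negative ones. MIR21, a growth-promoting microRNA encoded at the end of VMP1, was at 6.69, 6.29, 6.30 and 6.23. Here the CD133+ array stood apart from the other 3, with a difference of 0.40 between CD133 fractions and 0.07 between ALDH fractions. MIR185, inside TANGO2, was likewise 0.48 higher in CD133+ cells and differed by -0.01 in the ALDH sort. MIR296 had the largest CD133 difference among the members with a mean of 5 or more, at 5.64 in CD133+ and 5.08 in CD133- cells (0.56), and differed by -0.03 in the ALDH sort.

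Of the other members among the 15 with the brightest probes, MIR194-2 is taken up below with its neighbour MIR192, and the rest differed by less than 0.30 in the CD133 sort. MIR197 differed by 0.12 between CD133 fractions and 0.10 between ALDH fractions, MIR320A by -0.01 and 0.17, MIR25 by 0.11 and 0.09, and MIR139 by -0.07 and 0.23. The differences were 0.26 and 0.41 for MIR99B, 0.24 and 0.20 for MIR134, and 0.15 and 0.43 for MIR375, which is best known from the islets of the pancreas. MIRLET7I was lower in CD133+ cells (-0.24) and higher in ALDH+ cells (0.25). MIR149, inside GPC1, is the member of the 15 that reached 1.5-fold in the ALDH sort.

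In the CD133 sort, 0 of the 33 members above the floor differed 2-fold or even 1.5-fold. Of the 11591 genes that reached the floor in this sort, 0.716% had a 2-fold higher and 0.164% a 2-fold lower value in CD133+ cells, and for 1.5-fold the shares were 2.74% and 1.89%. Without the floor, 0 of the 173 members differed 2-fold (0.62% of all genes higher, 0.163% lower). At 1.5-fold 3 of the 173 were at least 1.5-fold higher and 0 lower, against 3.18% and 2.01% of all genes. These were MIR133B at 0.62, MIR7-3 at 0.62 and MIR101-1 at 0.61. All 3 lay below the floor on every array. With counts this small the members' shares cannot be told from those of all genes.

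In the ALDH sort, MIR503 was the only member at 2-fold. MIR503 was at 4.97 in CD133+, 4.57 in CD133-, 5.44 in ALDH+ and 4.04 in ALDH- cells. The ALDH+ array was the highest of the 4 and the only one above the floor, and the ALDH- array was the lowest. The difference of 1.40 is 2.64-fold, but with the floor in place of the ALDH- value MIR503 was only at least 1.37-fold higher. Among the 36 members that reached the floor with an ALDH array, 1 was thus higher and 0 lower at 2-fold, where 0.278% of 11879 genes were higher and 1.3% lower. Without the floor the count was the same over all 173 members, where 0.43% of genes were higher and 0.969% lower.

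At 1.5-fold, 7 of those 36 members were higher in ALDH+ cells, where 4.15% of those genes were, and 1 was lower, where 6.6% were. Besides MIR503 and MIR149 the higher ones were MIR219A1, MIR330, MIR27A, MIR147A and MIR150. Of these 7, MIR503, MIR219A1, MIR330, MIR27A and MIR147A reached the floor only with ALDH+, the array on which they were high. The lower one, MIRLET7F1, reached it only with ALDH-. The count of 7 thus leans on the values that let these members in, and no excess over other genes was tested. MIR219A1, best known from oligodendrocytes, was at 4.85, 4.65, 5.81 and 4.85, so the ALDH+ array alone stood above the floor. Its difference was 0.96, and it was at least 1.77-fold higher against the floor. MIR330, inside EML2, was at 5.20, 4.87, 5.59 and 4.82. It was higher in both positive fractions, by 0.33 and 0.77, and at least 1.52-fold higher against the floor in the ALDH sort.

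MIR149 was at 6.13 in CD133+, 5.95 in CD133-, 6.39 in ALDH+ and 5.77 in ALDH- cells. With MIR150, a microRNA of lymphocytes, it was above the floor on every array. The ALDH difference of MIR149 was 0.61 and that of MIR150 was 0.59, while in the CD133 sort they differed by 0.18 and 0.06. Of the leukocyte markers 10 of 12 were also higher in ALDH+ cells, where 53.8% of all genes were, but CD68 (-0.77) and the B cell marker MS4A1 (-0.08) were lower. The T cell markers CD3E (0.004), CD3D (0.04) and CD2 (0.33) were, like MS4A1, below the floor. The part of any of these in the value of MIR150 was not tested. MIR27A (0.73) and MIR147A (0.67) were below the floor in ALDH- cells, and against it they were only at least 1.08-fold and 1.29-fold higher.

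MIRLET7F1 went the other way in both sorts. It was at 4.50 in CD133+, 5.06 in CD133-, 4.06 in ALDH+ and 5.02 in ALDH- cells. Both negative fractions were just above the floor, and both positive fractions were below it. The differences were -0.56 and -0.97, the latter 1.95-fold, and against the floor the gene was only at least 1.06-fold lower in CD133+ and at least 1.03-fold lower in ALDH+ cells. No member was 1.5-fold different in both sorts.

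Another 9 members reached 1.5-fold in the ALDH sort while below the floor on both of its arrays. Higher were MIR30A (0.73), MIR516B2 (0.71), MIR153-2 (0.69), MIRLET7A1 (0.66), MIR103A1 (0.61), MIR34B (0.61), MIR93 (0.59) and MIR129-1 (0.59), and lower was MIR28 (-0.59). Without the floor, 15 of the 173 members (8.67%) were thus higher at 1.5-fold and 2 (1.16%) lower, where 5.4% and 5.26% of all genes were.

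**Figure D2:**
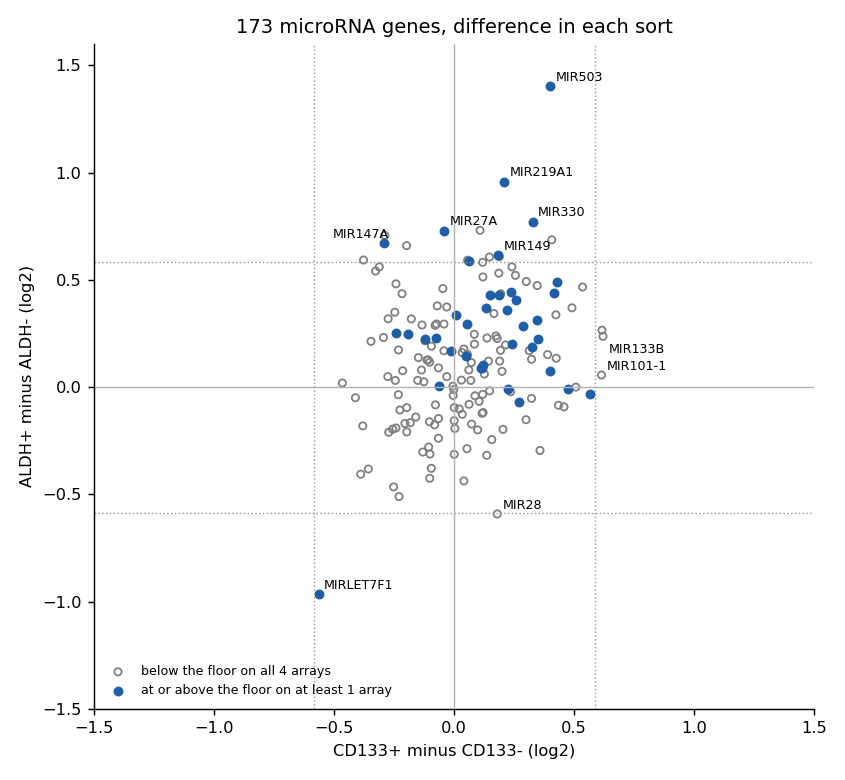
Difference of each of the 173 microRNA genes in the CD133 sort (horizontal axis, log2) and in the ALDH sort (vertical axis, log2); filled points are the 38 genes at or above the floor on at least 1 array, open points the other 135, and dotted lines mark 1.5-fold. MIR503 stands apart at 1.40 on the ALDH axis and MIRLET7F1 at -0.97, and no point passes 1.5-fold on both axes.

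Over the whole class the differences were small and leaned towards the positive fractions. In the CD133 sort 96 members were higher and 75 lower, with a median of 0.05, where the median over all genes was -0.01. In the ALDH sort 112 were higher and 60 lower, with a median of 0.13 against 0.03. Long non-coding RNA genes, of which 631 were measured, leaned further the same way, with 61.3% higher by CD133 (median 0.08) and 68.6% higher by ALDH (median 0.17), where the members' shares were 55.5% and 64.7%. The middle 95% of members ran from -0.38 to 0.53 by CD133 and from -0.43 to 0.72 by ALDH.

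The lean changed with probe signal in the members and in other genes, but not in the same way. Of the 33 members with a mean of 3 to 4, 48.5% were higher in CD133+ cells and 60.6% in ALDH+ cells, below the 60.6% and 66.4% of other genes in that range. Of the 27 with a mean of 4 to 5, 74.1% and 81.5% were, where other genes had 62.0% and 64.5%. Of the 30 members with a mean of 5 or more, 24 were higher in CD133+ cells, with a median of 0.17, and 27 were higher in ALDH+ cells, with a median of 0.25. Among the 11151 other genes in that range, 42.5% were higher in CD133+ and 47.4% in ALDH+ cells, with medians of -0.04 and -0.02. The 168 long non-coding RNA genes in that range lay between, with 61.3% and 67.9% higher and medians of 0.08 and 0.16. Of the 43 members with a mean below 2, only 16 were higher in CD133+ cells (median -0.12) and 15 in ALDH+ cells (median -0.13). Small nucleolar RNA genes, a class of short nuclear RNAs that guide RNA modification, leaned to the negative fractions: of 82 with a mean of 5 or more, 73 were lower in CD133+ and 55 in ALDH+ cells, with medians of -0.21 and -0.21. The microRNA genes are not independent of each other, since neighbours can share a transcript.

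**Figure D3:**
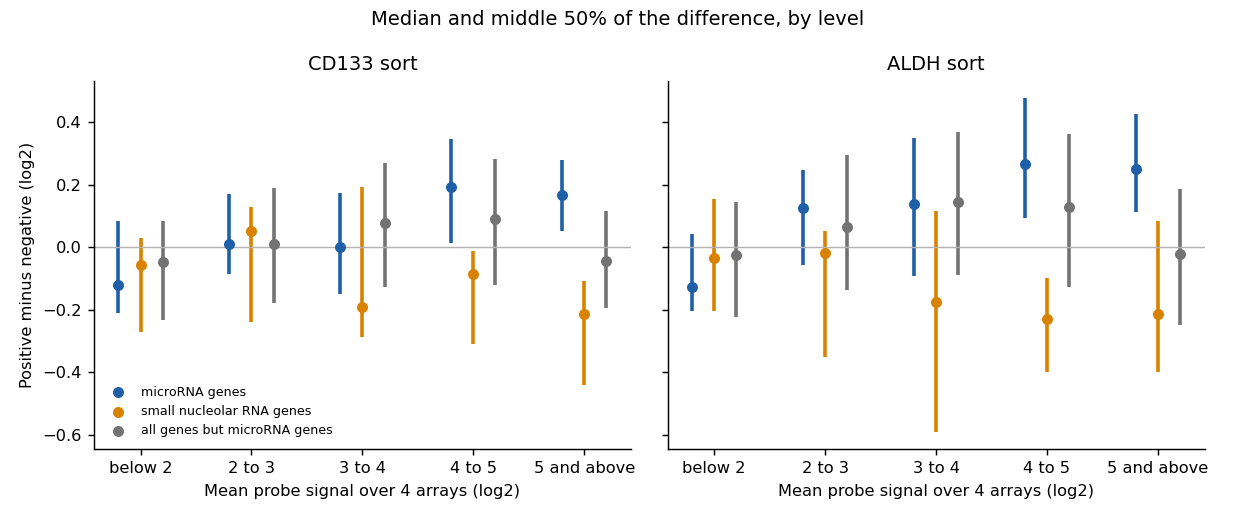
Median (points) and middle 50% (bars) of the difference, positive minus negative fraction (vertical axis, log2), in 5 ranges of mean probe signal over the 4 arrays (horizontal axis), for microRNA genes, small nucleolar RNA genes and all genes but the microRNA genes. In the range of 5 and above the microRNA medians are 0.17 and 0.25 and the small nucleolar RNA medians -0.21 and -0.21.

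Both sorts were then set side by side, which share no array. Of the 31 members above the floor in both sorts, 21 were higher in both positive fractions and 1, MIRLET7F1, was lower in both, while 3 were higher in CD133+ and lower in ALDH+ cells and 6 the reverse. In the CD133 sort MIR425, MIR193A, MIR330 and MIR323B reached the floor only with CD133+, and MIR423 only with CD133-. MIRLET7F1 reached it only with the negative fractions. These counts thus lean in part on the values that let such members in, and no excess over other genes was tested. Of 11262 other genes passing both floors, 21.0% had the higher value in both positive fractions. Over all 173 members 67 did (38.7%), where 28.1% of all 18204 other genes did. Over the 6882 other genes with a mean of 2 to 5 the share was 40.6%, but 43 members were dimmer and 30 brighter than that range. Over all 173 members, Pearson's r between the differences was 0.25 and Spearman's rho 0.22, against -0.02 and 0.08 over the 18204 other genes. Within the 31 brighter members r was 0.43 and rho 0.12. Of all members, 87 (50.3%) had their highest value on the ALDH+ array and 67 (38.7%) their lowest on the CD133- array, where 30.7% and 26.8% of other genes did. Of the 25 members at or above the floor on all 4 arrays, 19 and 14 did, where the shares of 10227 other genes were 19.8% and 18.2%. The median over all probes was likewise highest on the ALDH+ array (5.04) and lowest on the CD133- array (4.92). It was 4.99 on the CD133+ and 4.98 on the ALDH- array. The part of these array medians in the order of the members' values was not tested.

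Probe signal moved with the base composition of the hairpin. Over the 155 members with a hairpin sequence in RefSeq, the percentage of G and C had a Pearson's r of 0.78 and a Spearman's rho of 0.77 with the mean signal, whereas hairpin length had an r of 0.05. In the lowest of 3 equal parts by G and C content (28.8% to 44.8%), the median level was 1.81 and 2 of 52 members reached the floor on any array. In the highest (54.0% to 73.6%), it was 4.75 and 28 of 52 did. MIR376C, with 28.8% G and C, had the lowest mean of all members at 1.10.

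The differences between fractions also moved with base composition. The r between G and C content and the difference was 0.39 by CD133 and 0.46 by ALDH. In the lowest part the medians were -0.13 and -0.04, with 16 and 23 of 52 members higher in the positive fraction. In the highest part they were 0.14 and 0.27, with 40 and 46 of 52 higher. Among the 120 members below the floor on all 4 arrays, where little signal stands above background, r was still 0.27 and 0.37. The points of these correlations share the same 4 arrays, and the part of base composition in the lean towards the positive fractions was not tested. MIR503 (59.2% G and C) and MIR219A1 (68.2%) lie in the highest part and MIRLET7F1 (40.2%) in the lowest.

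**Figure D4:**
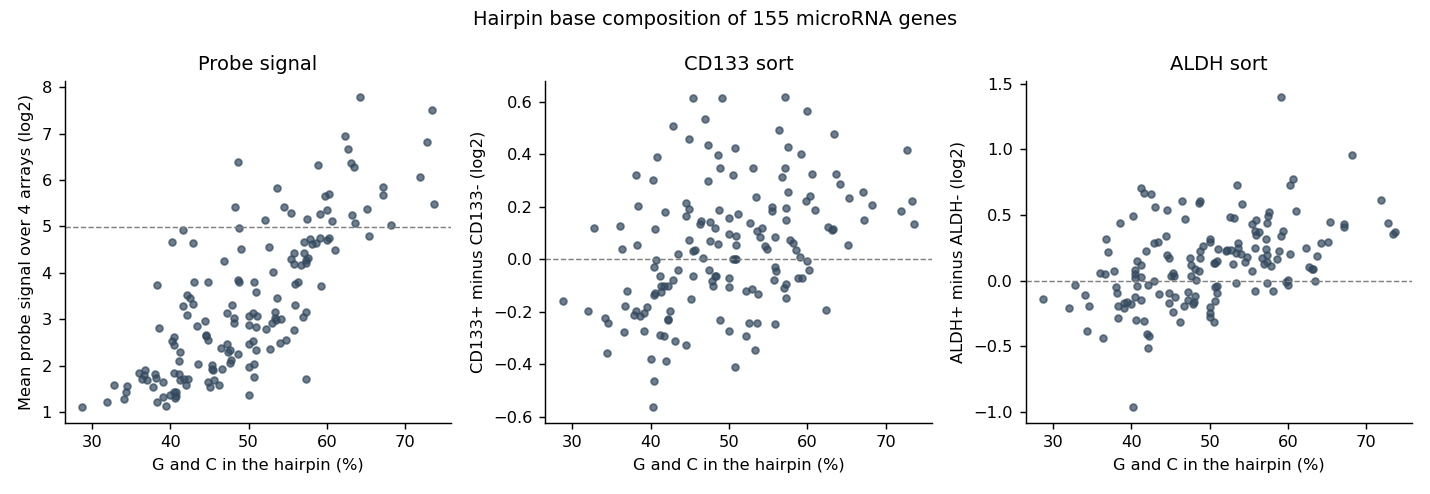
Percentage of G and C in the RefSeq hairpin of 155 microRNA genes (horizontal axes) against mean probe signal over the 4 arrays (left, log2, dashed line at the floor) and against the difference in the CD133 sort (middle, log2) and in the ALDH sort (right, log2). Signal climbs with G and C content (r of 0.78), and the differences do so more loosely (r of 0.39 and 0.46).

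Seed families and genomic clusters were examined next. The let-7 family showed no common direction across sorts: of 10 measured members 2 were higher and 8 lower in CD133+ cells (median -0.15), and 8 were higher and 2 lower in ALDH+ cells (median 0.19). Only 3 of the 10, MIRLET7D, MIRLET7F1 and MIRLET7I, reached the floor on any array. Of all genes 49.0% were higher in CD133+ and 53.8% in ALDH+ cells. MIRLET7F1, MIRLET7A1 and MIRLET7D lie within 10 kb of their neighbour on chromosome 9. In the ALDH sort they differed by -0.97, 0.66 and 0.01, but MIRLET7A1 was below the floor on all 4 arrays, and with values raised to the floor the differences of MIRLET7F1 and MIRLET7A1 were only -0.04 and 0.00. MIRLET7D, above the floor on all arrays at 5.34, 5.40, 5.47 and 5.46, varied least of the 3.

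Of the family around MIR503, MIR195 was higher in both positive fractions (0.49 and 0.37) and MIR16-1 lower in CD133+ cells (-0.47), all below the floor. MIR15A and MIR16-1, which lie together inside DLEU2, differed by -0.51 and 0.02 in the ALDH sort. Over the 6 measured members of that family the medians were -0.15 and 0.27. MIR503 was the only measured member of the Xq26 group that also holds MIR424, MIR542 and MIR450 genes.

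The cluster of MIR23A, MIR27A and MIR24-2 on chromosome 19 was higher in ALDH+ cells throughout, by 0.52, 0.73 and 0.18, with MIR27A alone reaching the floor. In the CD133 sort the same genes differed by 0.25, -0.04 and 0.04. MIR99B, MIRLET7E and MIR125A, another trio on that chromosome, were higher by 0.41, 0.13 and 0.38 in ALDH+ cells. MIR25, MIR93 and MIR106B, which lie in the replication gene MCM7, differed by 0.09, 0.59 and 0.53 in the ALDH sort and by 0.11, -0.38 and 0.19 in the CD133 sort. Over the oncogenic miR-17-92 group and its paralogs, 6 members were measured, with medians of -0.21 and -0.07. MIR106A, MIR19B2 and MIR92A2 on the X chromosome were lower in both positive fractions, at means of 1.44 to 1.93.

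Over 28 clusters with 73 members, the standard deviation of the differences within clusters was 0.19 by CD133 and 0.28 by ALDH, against 0.24 and 0.32 over all members. The spread among neighbours was thus a little smaller than among members in general.

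Members linked to liver and intestine were mostly below the floor. MIR122, the hepatocyte microRNA, had a probe below the floor on all 4 arrays, at 2.0 in CD133+, 1.98 in CD133-, 2.02 in ALDH+ and 2.12 in ALDH- cells. Its differences were 0.02 and -0.10. MIR194-2 was at 6.67, 6.86, 7.26 and 7.01 and its neighbour MIR192 at 4.36, 4.16, 4.51 and 4.07. In ALDH+ cells both were higher, by 0.25 and 0.44, while in CD133+ cells MIR194-2 was lower by 0.19 and MIR192 higher by 0.19. Of 16 measured members on the liver and intestine list, 9 were higher and 7 lower in CD133+ cells and 6 and 9 in ALDH+ cells. Of these, 2 reached 1.5-fold, MIR30A by ALDH (0.73) and MIR101-1 by CD133 (0.61), both below the floor on every array. MIR31 (0.42) and MIR196A1 (0.51) were higher in CD133+ cells, both below the floor, and MIR196A1 had the same value in both ALDH fractions.

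MIR130B, known from CD133-positive liver cancer cells, was at 4.06 in CD133+, 3.91 in CD133-, 4.42 in ALDH+ and 4.44 in ALDH- cells. It differed by 0.15 and -0.02, all below the floor. Of 5 members of the miR-181 family, known from EPCAM-positive liver cancer cells, MIR181C was above the floor and differed by 0.05 and 0.14. The 21 measured members on the list of microRNAs known from liver cancer had medians of 0.10 and 0.12, with MIR150 as the only one at 1.5-fold.

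The miR-200 family, which keeps cells epithelial by repressing ZEB factors, differed little. MIR200B, MIR200A and MIR429, a cluster on chromosome 1, differed by -0.01, -0.00 and 0.07 between CD133 fractions and by 0.00, -0.01 and 0.11 between ALDH fractions. MIR200C differed by -0.25 and 0.35 and MIR141 by -0.08 and -0.08. All 5 were below the floor. The p53 targets MIR34A (0.06 and 0.15) and MIR34B (0.15 and 0.61) were below it too. Of the pluripotency cluster only MIR302A and MIR302B were measured, with means of 1.31 and 1.21, near the lower end of the signal range.

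Of the imprinted DLK1-DIO3 region on chromosome 14, 16 members were measured, of which MIR134 and MIR323B reached the floor. Of the 16, 6 were higher and 10 lower in CD133+ cells and 9 and 7 in ALDH+ cells. MIR323B was higher by 0.35 and 0.22 and MIR127 differed by -0.24 and 0.48, while MIR494 differed by 0.05 and -0.29. Both measured members of the placental cluster on chromosome 19, MIR516B1 and MIR516B2, had means under 2.

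MicroRNAs that mark other tissues were mostly below the floor, as were 135 of all 173 members. None of the 4 muscle members reached it, namely MIR133B (mean 4.42), MIR206 (3.61), MIR1-1 (1.79) and MIR208A (1.77). Of 6 blood members MIR150 alone did, and MIR223 (3.47), MIR146A (1.91) and MIR142 (1.65) did not. The endothelial and stromal members MIR126 (2.91), MIR199B (2.37) and MIR199A1 (2.03) did not either. Of 9 neural members, MIR212, MIR132 and MIR124-2 did. MIR212 and MIR132, neighbours on chromosome 17, were higher by 0.37 and 0.44 in ALDH+ and by 0.13 and 0.23 in CD133+ cells, and MIR124-3 was higher by 0.42 and 0.34 while below the floor.

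Host genes were used to ask whether the probes follow the surrounding transcript. By the RefSeq table, 112 members lay inside another gene on the same strand, and for 63 of them, in 52 hosts, the host was measured. The strand that an array probe reads is not given here. The member had the sign of its host in 29 of 63 cases by CD133 and in 38 of 63 by ALDH. Over these pairs, Pearson's r between the differences was 0.03 and -0.12, with most member probes below the floor. For the 12 pairs with both means at or above the floor r was 0.62 by CD133 and -0.03 by ALDH, and the signs were shared in 4 and 8 of them. NSRP1, the host of MIR423, was the only host among those 12 that differed 1.5-fold by CD133 (-1.16, with -0.12 for MIR423). The r of 0.62 rests largely on this pair, and r without it was not computed. The pairs share the arrays, and 3 members can share a host.

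MIR503 went apart from its host in the ALDH sort: MIR503HG was at 5.34 in CD133+, 5.60 in CD133-, 5.28 in ALDH+ and 5.42 in ALDH- cells, with differences of -0.26 and -0.14. MIR423 and its host NSRP1, a splicing regulator, also parted, with -0.12 and 0.22 for the member against -1.16 and -0.47 for the host. MIR21 differed by 0.40 in the CD133 sort, where VMP1 differed by -0.04. MIR330 was higher in both positive fractions while EML2 differed by -0.28 and -0.13. MIR28 was nearer to its host in the ALDH sort, with -0.59 against -0.84 for LPP, but not in the CD133 sort, with 0.18 against -0.26. MIR149 (0.18 and 0.61) and GPC1 (0.05 and 0.30) had the same sign in both, and GPC1-AS1, a long non-coding RNA gene on the opposite strand there, differed by 0.18 and 0.63. For MIR25, MIR93 and MIR106B the host MCM7 differed by -0.33 and 0.35, and its sign was shared by all 3 in the ALDH sort but by MIR93 alone in the CD133 sort.

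**Figure D5:**
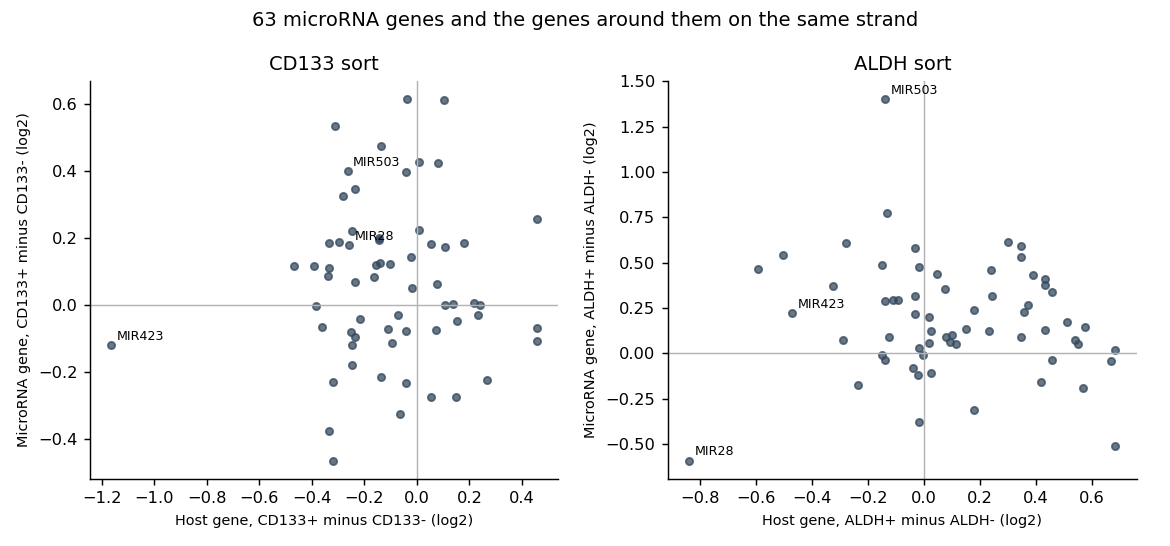
Difference of 63 microRNA genes (vertical axes, log2) against that of the gene around them on the same strand (horizontal axes, log2), in the CD133 sort (left) and in the ALDH sort (right). Over all 63 pairs the points form no line (r of 0.03 and -0.12). Over the 12 pairs with both means at or above the floor r was 0.62 and -0.03, the former resting largely on MIR423 and its host NSRP1. In the ALDH sort MIR503 lies at 1.40 where its host MIR503HG lies at -0.14.

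The genes that make and use microRNAs were at or above the floor on at least 1 array except LIN28A, which was also the only one to differ 1.5-fold. TNRC6C reached the floor in CD133- cells only (5.07). Of 13 nuclear factors, 3 were higher and 10 lower in CD133+ cells (median -0.12) and 4 and 9 in ALDH+ cells (median -0.08). Among genes other than microRNA genes with a mean of 5 or more, 42.5% were higher in CD133+ and 47.4% in ALDH+ cells (medians -0.04 and -0.02). The same shares stand beside the counts of cytoplasmic and turnover factors below, and no lean beyond them was tested. DROSHA was at 6.60, 6.83, 6.04 and 6.25, lower by 0.23 and 0.21 in the positive fractions. DGCR8, its partner, was lower in CD133+ cells (-0.41) and higher in ALDH+ cells (0.36). The RNA-binding protein HNRNPA1 differed by -0.25 and -0.39, the cap-binding NCBP2 by -0.10 and -0.31, and ERH, which aids the processing of clustered hairpins, by 0.01 and 0.28.

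Of 16 cytoplasmic factors, 5 were higher and 11 lower in CD133+ cells (median -0.11) and 7 and 9 in ALDH+ cells (median -0.07). DICER1 differed by -0.30 and 0.05. Its cofactor PRKRA differed by 0.05 and -0.41, the Argonaute genes AGO3 by -0.40 and -0.36 and AGO4 by 0.09 and -0.31, and the silencing scaffold TNRC6A by -0.22 and -0.38. Of 18 regulators and turnover factors, 5 were higher and 13 lower in each sort, with medians of -0.07 and -0.15. They were not the same genes, and LIN28A alone was higher in both positive fractions. The 5′ exonucleases XRN1 (-0.39 and -0.52) and XRN2 (0.01 and -0.49) and the poly(A) polymerase TENT4B (-0.26 and -0.44) differed most among those above the floor. LIN28A, a blocker of let-7 processing, was below the floor with differences of 0.07 and 0.64, and LIN28B, at 5.61, 5.89, 5.77 and 5.69, differed by -0.28 and 0.08.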

How the data were processed

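RNA of 4 sorted fractions of Huh7 was hybridised to 1 Affymetrix array each, with Trizol extraction and biotin labelling according to the labels. The authors deposited log2 values, which the submitters' processing notes trace to RMA, a method that corrects background, equalises the distribution of the arrays and summarises probes. Global shifts in RNA amount between fractions are therefore largely lost. Small offsets between arrays remain, as the medians over all probes ran from 4.92 (CD133-) to 5.04 (ALDH+). Software versions and genome build are not given in the sources used here.

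The annotation gave 19310 of 28869 probes 1 symbol, 1752 several, and did not list 7807. Where a gene had several probes the one with the highest mean was used; each member had 1. Genes counted at 2-fold and 1.5-fold had a value of 4.98 (the overall median) or more on at least 1 array of that sort. "At least" folds put the floor in place of the dimmer value. RefSeq (GRCh38.p14) gave sequences, hosts and neighbours within 10 kb; coordinates are those of the sequences, not of the probes.

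Named with values were the 15 members with the highest mean, those 2-fold different, those above the floor and 1.5-fold different, up to 4 members per microRNA list by mean, up to 4 genes per biogenesis list by difference, and hosts and neighbours of named members; others were chosen after their values were seen. Members and lists were chosen with earlier results of these data known. Other settings were the 75th percentile as floor, no floor, 1.5-fold, the mean over probes, values raised to the floor, centring, a second quantile normalization and loess (span 0.4). Counting was tested on simulated data. Python 3.11.15, numpy 2.4.6, pandas 2.3.3, statsmodels 0.14.6 and matplotlib 3.10.9 were used.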

Additional observations from a re-analysis of the deposited data

Results flagged for a closer look

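The 6 members named here were at least 1.5-fold different in the ALDH sort and had the opposite sign in the CD133 sort. With 1 array per fraction the difference between sorts was not tested. The ALDH difference minus the CD133 difference was 0.996 for MIR516B2, 0.97 for MIR93, 0.96 for MIR147A, 0.86 for MIRLET7A1, 0.77 for MIR27A and -0.77 for MIR28. For MIR27A the CD133 difference was only -0.04, and MIR516B2, MIR93, MIRLET7A1 and MIR28 were below the floor on all 4 arrays.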

How the results depend on the processing

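No paired analysis was possible because each group holds 1 array and no result comes from a test. The count of 0 members at 2-fold in the CD133 sort was the same under all 8 other settings, the 1.5-fold threshold included. In the ALDH sort the count of 1 became 8 at 1.5-fold, 0 with the floor at the 75th percentile, 0 with values raised to the floor, and 2 after a second quantile normalization or loess, where MIRLET7F1 joined MIR503 at -1.07 and -1.09. With values raised to the floor MIR503 differed by 0.45 and MIRLET7F1 by -0.04. The median difference of the members was 0.17 for CD133 and 0.25 for ALDH over those above the 75th percentile, and 0.00 for ALDH with values raised to the floor; the cause is that most members lie below the floor and are set equal there. Of the 30 members with a mean of 5 or more, 24 stayed higher in CD133+ cells, and 26 to 27 in ALDH+ cells, under the mean over probes, centring, the second quantile normalization and loess. Among the 122 differences of the 61 named members, 64 moved by at least 0.1 with values raised to the floor. After loess 20 moved by as much, and after the second quantile normalization 5. No difference of at least 1.5-fold of a named member took the opposite sign. With values raised to the floor, however, that of MIR133B in the CD133 sort fell from 0.62 to 0.00. Signs shared with hosts and the spread within clusters moved little. The signal over background limits what can be said of the 135 members below the floor on every array.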

Other observations

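The probes with several symbols held a few further microRNA genes with a signal above the floor. The probe shared by MIRLET7B and MIRLET7BHG was at 5.85 in CD133+, 5.21 in CD133-, 5.85 in ALDH+ and 5.72 in ALDH- cells. The probe shared by MIR23B and AOPEP was at 5.06, 4.82, 5.37 and 5.11, and that shared by MIR27B and AOPEP at 5.23, 5.25, 4.71 and 4.57. The probe shared by MIR492 and the keratin pseudogene KRT19P2 was at 5.60 in CD133+, 4.50 in CD133-, 5.62 in ALDH+ and 5.33 in ALDH- cells, and no gene can be named as the source of its signal.

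Exactly equal values on at least 2 of the 4 arrays were found for 10 of the 173 members (5.78%), MIR222, MIR196A1 and MIR152 among them, and for 33 of the 18204 other genes (0.181%).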
